A study of Mus musculus with 14 samples.

Results

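The 8 genes Angpt2, Aim2, Slc15a2, Cadm3, Apol8, Ube2d2b, Gm28049 and Gm27177 were followed here because their transcripts were lower in Ter119-positive fetal liver cells without Prmt5 than in the same cells with it. They are 8 of the 45706 genes in the count tables, picked by symbol from a list of genes with strongly lower values in that contrast. The values in Ter119-positive cells therefore chose the genes and are given as a description with no test. Comparisons between the Ter119 fractions share libraries with that contrast and are treated the same way. The measurements that the choice did not use are KO against WT in Ter119-negative fetal liver cells, most of which came from the same mice, and in LK cells, a sorted progenitor population.

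The 14 libraries fall into 6 groups. Prmt5 encodes the main enzyme that places symmetric dimethyl marks on arginines of histones and splicing proteins. From E14.5 embryos, liver cells were sorted by Ter119, a surface antigen of maturing red cell precursors, into Ter119neg and Ter119pos fractions. KO embryos were PRMT5fl/fl; Vav-cre, in which the Vav promoter drives the recombinase across blood cells, and WT embryos were PRMT5fl/fl without it. Each of these 4 groups held 2 libraries, called A and B. In KO, A came from mouse 1 and B from mouse 2 in both fractions, while in WT mouse 4 gave library B of both fractions and mice 3 and 5 gave library A of Ter119neg and of Ter119pos. The LK libraries are from sorted progenitors of PRMT5fl/fl mice. Their KO mice carried Mx1-cre, which interferon induces, and their WT mice did not, and the cells of both were collected 7 days after poly(I:C) was injected to induce interferon. The LK groups held 3 libraries each, A to C, and the labels name neither the mice behind them nor their age. Both floxed alleles are thus shared by all 6 groups.

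Red cell precursors pass from dividing progenitors to cells packed with hemoglobin, and on the way they switch on genes for the membrane skeleton, heme and iron handling. Several of the 8 genes are better known elsewhere. Angpt2 is a secreted ligand of the Tie2 receptor of blood vessels, Aim2 senses DNA in the cytosol and starts an inflammasome, Slc15a2 takes up di- and tripeptides in kidney and brain, and Cadm3 is an adhesion molecule of neurons. Apol8 belongs to the apolipoprotein L family. Ube2d2b is an intronless copy of a ubiquitin-conjugating enzyme gene. Gm28049 and Gm27177 are gene models without a name on chromosome 14.

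The letters upstream of the members give a first view of what they do and do not share. RefSeq start-site windows (GRCm38.p6, 250 bases before to 50 after the start, written 5′ to 3′ on the gene's own strand) matched 6 of the 8 members, Gm28049 with 2 windows. Each was searched on both strands for AGATAA or TGATAA, letters that GATA factors of red cells prefer, and for CACCC, the core of the Klf1 motif, which do not overlap each other. Capitals in the 4 windows below mark these matches, with GGGTG being CACCC on the other strand. Slc15a2 is shown as the only matched member with a GATA motif, Cadm3 for its 5 CACCC matches, Apol8 as the member with opposite differences in the 2 fractions, and Aim2 as the member with neither motif. They are Slc15a2 at chr16:36784913-36785212 (minus strand), Cadm3 at chr1:173367646-173367945 (minus), Apol8 at chr15:77756961-77757260 (minus) and Aim2 at chr1:173420354-173420653 (plus).
Slc15a2: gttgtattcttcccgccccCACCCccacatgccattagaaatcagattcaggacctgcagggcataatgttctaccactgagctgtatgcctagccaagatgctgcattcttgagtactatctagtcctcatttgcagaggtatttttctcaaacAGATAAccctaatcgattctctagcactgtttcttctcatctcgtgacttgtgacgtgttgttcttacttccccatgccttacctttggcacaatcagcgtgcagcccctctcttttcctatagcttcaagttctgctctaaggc
Cadm3: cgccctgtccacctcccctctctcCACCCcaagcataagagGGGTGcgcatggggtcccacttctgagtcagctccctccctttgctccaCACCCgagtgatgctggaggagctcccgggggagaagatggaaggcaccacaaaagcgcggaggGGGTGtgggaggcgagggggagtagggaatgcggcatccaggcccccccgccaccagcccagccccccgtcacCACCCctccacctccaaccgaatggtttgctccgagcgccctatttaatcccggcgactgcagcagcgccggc
Apol8: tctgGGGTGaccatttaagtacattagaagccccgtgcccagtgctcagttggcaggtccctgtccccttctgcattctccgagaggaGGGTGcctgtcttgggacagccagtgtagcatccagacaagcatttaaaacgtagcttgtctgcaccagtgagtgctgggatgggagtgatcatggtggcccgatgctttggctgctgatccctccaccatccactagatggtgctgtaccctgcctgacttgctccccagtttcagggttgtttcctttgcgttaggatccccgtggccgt
Aim2: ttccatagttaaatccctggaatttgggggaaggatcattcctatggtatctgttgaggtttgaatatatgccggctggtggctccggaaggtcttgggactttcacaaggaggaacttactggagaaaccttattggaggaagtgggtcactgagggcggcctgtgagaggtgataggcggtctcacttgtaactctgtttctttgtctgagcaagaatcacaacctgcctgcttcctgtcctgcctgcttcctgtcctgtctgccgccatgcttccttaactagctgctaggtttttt

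The GATA letters in Slc15a2 start 95 bases before the start site. In the reference as a whole 18.6% of 32851 such windows hold them, and 57.5% hold CACCC. Slc15a2 had 1 CACCC, Cadm3 5, Apol8 2, Ube2d2b 1, and 1 of the 2 Gm28049 windows had 1. These letters thus do not run through all members. A match is a string of letters and not a measured binding site.

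Library totals ran from 19514550 to 30976961 expected counts. Levels are given as CPM, counts scaled to library size, here after edgeR's TMM factors, and fetal liver and LK were scaled separately, so a level in one is not strictly comparable with a level in the other. A gene was called when its adjusted p was under 0.05 (edgeR quasi-likelihood test, Benjamini-Hochberg over all genes tested). Prmt5 transcripts were at 51.8 to 52.3 CPM in Ter119neg WT and 4.26 to 4.51 in KO, at 13.8 to 17.7 in Ter119pos WT and 3.64 to 4.92 in KO, and at 63.1 to 110 in LK WT and 10.5 to 12.3 in KO. Summed erythroid markers were at 424 to 1228 CPM in the Ter119neg libraries and, in Ter119pos, at 244229 to 268288 in WT and 274143 to 354179 in KO. Kit, the progenitor receptor, was at 209 to 388 CPM in LK. As a share of unscaled counts, globin genes ran the other way, with 24.6 to 25.1% in Ter119pos WT and 16.4 to 18.3% in KO. In Ter119pos 54.2% of 15566 tested genes were called, 24.8% higher and 29.3% lower, the background for the members' values in that contrast, from which nothing is read. In bulk libraries, fewer cells of a type and less RNA per cell cannot be told apart.

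Of the 8 genes, 7 were far down in Ter119pos KO and Apol8 was not. Gm27177 stood at 0.0521% of its WT mean, Gm28049 at 0.213%, Angpt2 at 5.72%, Aim2 at 6.44%, Slc15a2 at 6.59%, Cadm3 at 7.66% and Ube2d2b at 10.8%. Apol8 kept 51.7%. Among the 11228 genes that averaged 1 CPM or more in Ter119pos, ordered by log2 fold change, these 7 ranked 4, 11, 24, 26, 32, 34 and 66 from the lowest. Among all 15566 genes tested they ranked 4, 11, 115, 125, 162, 174 and 243, and Apol8 3342. Among the 11228 genes Apol8 ranked 2310, with 2302 genes outside the list at or below its fold change. Its neighbours in that order were Icmt and Slc35g1 at -0.95 just inside and Mxi1 and Slc14a1, also at -0.95, just outside. The description as most reduced thus does not hold for Apol8.

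**Figure D1:**
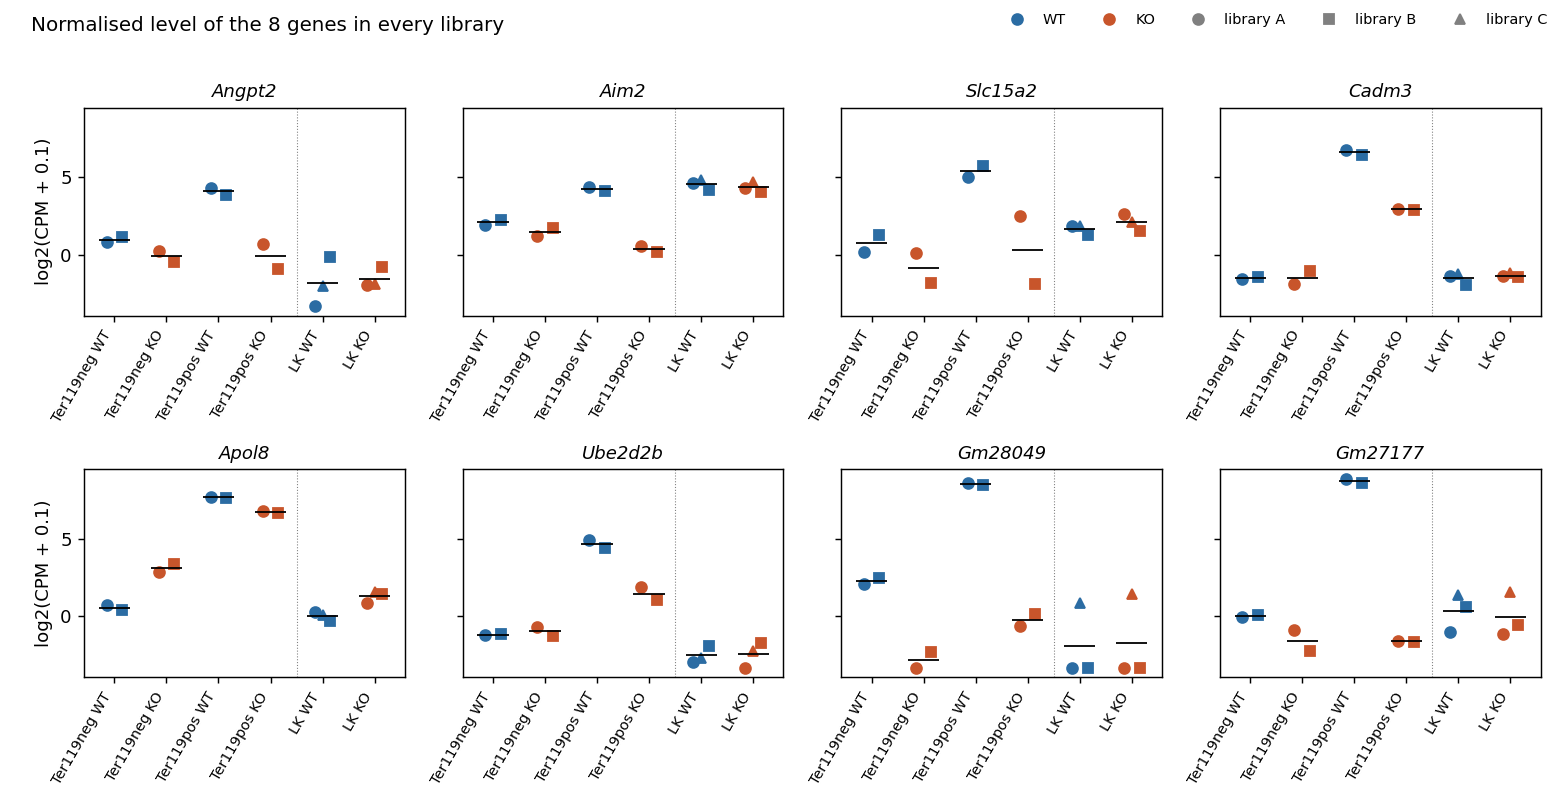
Level of each member in every library as log2(CPM + 0.1), by group, with blue for WT, orange for KO, a marker shape per library letter and a black bar for the mean of the plotted values. All 8 genes peak in Ter119pos WT among the fetal groups, Aim2 alone is about as high in LK, which was scaled separately, and Apol8 is the member that stays high in Ter119pos KO.

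Angpt2 lies at chr8:18690263-18741562 on the minus strand (GRCm38, GENCODE M21), inside Mcph1, a gene for a chromosome condensation protein on the opposite strand, with which it shares no exon base. Its levels were 19.9 and 14.54 CPM in Ter119pos WT and 1.54 and 0.431 CPM in KO. In Ter119neg they were 1.63 and 2.08 CPM in WT and 1.10 and 0.612 CPM in KO. Among fetal libraries only those of Ter119pos WT were high, and the KO fractions overlapped each other. The log2 difference in Ter119pos was -4.05 (SE 0.376), and it was -5.31 without KO library A and -3.48 without KO library B. Angpt2 rose 9.28-fold from Ter119neg to Ter119pos in WT and stood 17.5-fold lower in KO than in WT Ter119pos, so that its KO mean of 0.986 CPM lay below the Ter119neg WT mean of 1.85 CPM. Mcph1 around it was at 101 and 82.9 CPM in Ter119pos WT and at 21.5 and 20.2 CPM in KO, a log2 difference of -2.14 (SE 0.119, adjusted p = 9.03e-08). Mcph1 also rose between the WT fractions, by 2.10 on the log2 scale. In Ter119neg it was lower by a log2 value of -0.56 (SE 0.113, adjusted p = 0.00462). The strand setting of the authors' counting is not given in the sources used here.

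Tek, which encodes Tie2, the receptor of Angpt2, moved the other way from its ligand. It was at 0.120 and 0.235 CPM in Ter119pos WT and at 14.7 and 13.6 CPM in KO, a log2 difference of 6.28 (SE 0.314, adjusted p = 5.27e-08). In Ter119neg it was at 3.46 and 2.72 CPM in WT and at 5.66 and 5.05 CPM in KO, a difference of 0.79 (SE 0.175, adjusted p = 0.00839). The KO libraries were thus above the WT libraries in both fractions. Of the 13 tested genes of the angiopoietin and Tie list, which holds Tek and leaves out Angpt2, 3 were called higher and 2 lower in Ter119pos. Itgav and Itga5, integrin chains that bind matrix, were higher by 1.38 and 1.14, while Itgb1, their partner chain, was lower by a log2 value of -0.80 and Vegfa, the vessel growth factor, by -0.64. The list's median was 0.59 beside -0.04 for all genes tested. In Ter119neg 1 was higher and 3 were lower (Vegfb, Nrp1 and Vegfa), with a median of -0.35. Endothelial markers, Tek included, summed to 38.4 to 39.3 CPM in Ter119pos KO and 15.8 to 16.2 CPM in WT. Tek made up 14.7 and 13.6 CPM of the KO sums. Of 10 tested, 4 were higher and 2 lower, beside 24.8% and 29.3% of all genes. In Ter119neg the sums ran the other way, at 63.1 to 72.4 CPM in KO and 77.4 to 84.6 CPM in WT. There 2 were higher and 5 lower, beside 9.57% and 9.55% of all genes. The part of endothelial markers in these results was not tested.

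Aim2 lies at chr1:173350879-173466040 on the plus strand and overlaps Cadm3 on the minus strand, again with no exon base in common. In Ter119pos it was at 20.5 and 17.3 CPM in WT and at 1.40 and 1.04 CPM in KO. In Ter119neg it was at 3.72 and 4.72 CPM in WT and at 2.25 and 3.14 CPM in KO. Its gain in WT, 4.48-fold, was the smallest of the 8, and its drop in Ter119pos, 15.5-fold, was larger than that gain. The KO Ter119pos mean of 1.22 CPM was 3.47-fold below the Ter119neg WT mean and 2.21-fold below the Ter119neg KO mean. Aim2 was thus the one member whose KO libraries were all lower in Ter119pos than in Ter119neg.

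The partners of Aim2 went in both directions in Ter119pos. Of 10 tested genes of the AIM2 inflammasome list, which leaves out Aim2, 3 were higher and 2 lower, beside 24.8% and 29.3% of all genes, with a median of 0.02. Pycard, the adaptor that links Aim2 to caspase 1, went from 3.55 and 4.00 CPM in WT to 5.46 and 6.99 in KO (log2 difference 0.71, SE 0.206, adjusted p = 0.0111). Gsdmd, the pore-forming effector, was higher by 1.36 (SE 0.296, adjusted p = 0.00184) and Ninj1, which ruptures the membrane, by 1.40 (SE 0.295, adjusted p = 0.00147). Nek7, a partner of the NLRP3 sensor, was lower by a log2 value of -0.77 (SE 0.119, adjusted p = 0.000138), and the cytokine gene Il18 was called lower at 0.421 CPM or less in every Ter119pos library. In Ter119neg 2 of 10 were called, Nlrp3 and Il18, both lower, with a median of -0.21.

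Aim2 belongs to the PYHIN family, sensors of nucleic acid that interferon induces. All 5 tested members other than Aim2 were lower in Ter119neg KO, with a median of -1.17. Ifi204 went from 2.71 and 4.52 CPM to 0.600 and 0.780 (log2 difference -2.37, SE 0.360, adjusted p = 0.000777), Ifi203 was lower by a log2 value of -1.07 (SE 0.204, adjusted p = 0.00345), and Mndal, Ifi205 and Mnda by -1.17, -1.73 and -1.14. The count was 3 with DESeq2 and 2 to 4 when single libraries were left out. In Ter119pos 1 of 5 was called, Ifi203 at -0.998 (SE 0.387, adjusted p = 0.045), with a median of -0.96. In LK edgeR called 0 of 5 (1 at an unadjusted p under 0.05), with a median of -1.38. Macrophage markers fell with these genes in Ter119neg, all 10 tested being lower in KO. They summed to 131 to 138 CPM in WT and 30.7 to 34.6 CPM in KO, and Adgre1, which encodes the F4/80 antigen, was at 16.7 and 18.7 CPM in WT and 3.24 and 3.54 CPM in KO. Their part in the result was not tested.

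Slc15a2, a proton-coupled peptide transporter, lies at chr16:36750177-36784962 on the minus strand. It was at 31.9 and 53.6 CPM in Ter119pos WT and at 5.46 and 0.173 CPM in KO. In Ter119neg it was at 1.03 and 2.34 CPM in WT and at 0.962 and 0.186 CPM in KO. KO library A, from mouse 1, was the higher of the 2 KO libraries in both fractions. The log2 difference in Ter119pos was -3.83 (SE 0.626), -7.92 without KO library A and -2.96 without KO library B, so its size rests on which KO library is kept. In the KO the fractions overlapped, and the step between them, 2.39 (SE 0.905), became -1.71 without the Ter119pos KO library A. Of its relatives Slc15a4, a lysosomal transporter, was at 7.70 and 9.12 CPM in Ter119pos WT and 6.58 and 6.47 CPM in KO (log2 difference -0.37, SE 0.172, adjusted p = 0.0919), and Slc15a3 was lower in Ter119neg (-2.01, SE 0.379, adjusted p = 0.00328). These were the 2 tested members of that list.

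Cadm3 lies at chr1:173333258-173367695 on the minus strand. It shares 361 exon bases, 4.98% of its own, with Ackr1, the gene of the Duffy antigen, on the same strand, so part of its reads cannot be told apart from those of Ackr1. Cadm3 was at 109 and 86.8 CPM in Ter119pos WT and at 7.72 and 7.28 CPM in KO. Both Ter119neg groups were near the floor of detection, at 0.233 and 0.262 in WT and 0.165 and 0.372 in KO. Its WT gain of 395-fold was thus far above its drop of 13.1-fold, and in KO it still stood 27.9-fold higher in Ter119pos than in Ter119neg. Ackr1 itself was at 76.4 and 77.5 CPM in Ter119pos WT and at 43.9 and 44.1 CPM in KO, a log2 difference of -0.80 (SE 0.107). Among 8 tested genes of the Cadm and nectin list, which leaves out Cadm3, 1 was called in Ter119pos. This was Pvrl2 (nectin 2), which went from 1.14 and 1.00 CPM to 6.72 and 7.07 CPM (log2 difference 2.68, SE 0.254, adjusted p = 2.59e-06). In Ter119neg Pvrl4 was higher and Cadm1 and Cd96 were lower. The list's median was 0.49 in Ter119pos and 0.13 in Ter119neg.

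Apol8 lies at chr15:77747798-77757003 on the minus strand, between Apol9b and Myh9. It was at 212 and 202 CPM in Ter119pos WT and at 113 and 101 CPM in KO, a log2 difference of -0.95 (SE 0.155). In Ter119neg it was at 1.58 and 1.22 CPM in WT and at 7.26 and 10.5 CPM in KO. The genotypes did not overlap in either fraction, and they stood in opposite order. Its WT gain was 148-fold, and in KO the step between fractions was 12.04-fold. Of 4 tested relatives, Apol11b was higher in Ter119pos KO, at 41.6 and 49.3 CPM against 28.0 and 31.7 in WT (log2 difference 0.60, SE 0.136, adjusted p = 0.00226). Apold1 was lower, at 3.99 and 3.62 against 8.90 and 7.59 CPM (-1.11, SE 0.212, adjusted p = 0.000729), and Apol6 was called lower, at 0.140 and 0 against 1.74 and 2.12 CPM. All 4 relatives were higher in Ter119pos than in Ter119neg in WT.

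Ube2d2b is a single-exon gene at chr5:107830099-107831776 on the plus strand, inside Evi5, a gene for a regulator of Rab11 and cytokinesis on the opposite strand, with which it shares no exon base. None of its 1629 transcript 50-mers occurs in another annotated gene, Ube2d2a included. It was at 30.7 and 20.8 CPM in Ter119pos WT and at 3.57 and 1.98 CPM in KO. Both Ter119neg groups were between 0.319 and 0.522 CPM. It rose 74.8-fold between the WT fractions and 6.60-fold between the KO fractions. Evi5 was at 426 and 344 CPM in Ter119pos WT and at 100 and 110 CPM in KO, a log2 difference of -1.87 (SE 0.139), and showed 0.11 (SE 0.143, adjusted p = 0.649) in Ter119neg. The parent enzyme gene Ube2d2a was at 46.6 and 47.6 CPM in Ter119pos WT and at 38.6 and 49.1 CPM in KO, with overlapping libraries. Of 33 tested ubiquitin-conjugating enzyme genes other than Ube2d2b, 6 were higher and 8 lower in Ter119pos, with a median of -0.02. Cdc34, the partner of SCF ligases, was higher by 1.61 and Ube2a, which acts on histone H2B, by 1.40, while Ube2t, of the Fanconi pathway, was lower by a log2 value of -1.05.

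Gm28049 and Gm27177 stood at the far end of the list, and their sequences cannot be separated. Gm28049 lies at chr14:69363504-69503362 and Gm27177 at chr14:69582164-69683286, both on the minus strand. Gm28049 is annotated as protein coding and Gm27177 as an antisense RNA, which overlaps Loxl2. All 6853 transcript 50-mers of Gm27177 also occur in Gm28049, and 87.5% of the 7828 of Gm28049 occur in Gm27177, with 5.42% in Slc25a37, the gene of the mitochondrial iron importer mitoferrin 1. The split of reads between the 2 models is therefore uncertain, and their sum is the safer value. Summed, they were at 866 and 749 CPM in Ter119pos WT and at 0.791 and 1.26 CPM in KO. In Ter119neg the sum was 5.07 and 6.33 CPM in WT and 0.434 and 0.216 CPM in KO. The WT libraries of both fractions were above every KO library of either fraction. Taken apart, Gm28049 was at 397 and 353 CPM and Gm27177 at 468 and 397 CPM in Ter119pos WT, against 0.563 and 1.04 CPM and 0.228 and 0.223 CPM in KO. The 2 KO libraries held 20.0 counts of Gm28049 and 5.84 of Gm27177 in all, so the fold changes of 469 and 1919 rest on few counts in KO.

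Several genes around or within them on chromosome 14, which also carries Prmt5, were lower too, to unequal extents. R3hcc1, the nearest protein-coding gene to the right of Gm27177, was not. It was at 3.01 and 2.82 CPM in Ter119pos WT and 2.66 and 3.54 CPM in KO (log2 difference 0.08, SE 0.231, adjusted p = 0.807). Gm38378, within Gm28049, and Gm37513, within Gm27177, had identical values in every library and are read as 1 signal. They were at 53.1 and 42.7 CPM in Ter119pos WT and 0 in all 4 fetal KO libraries. A count of 0 allows up to 0.210 and 0.259 CPM in the Ter119pos KO libraries. Gm21451, a pseudogene that shares 301 exon bases with Gm28049 on the opposite strand, was at 92.6 and 58.8 CPM in WT and 0.0791 and 0.185 CPM in KO. Entpd4, a Golgi nucleotidase gene, covers 27.1% of the exon bases of Gm28049 on the opposite strand. It was at 22.9 and 19.6 CPM in Ter119pos WT and 2.82 and 2.58 CPM in KO (log2 difference -2.97, SE 0.174, adjusted p = 1.20e-07), and was lower in Ter119neg as well (-0.86, SE 0.141, adjusted p = 0.00129). Gm21685 covers 24.6% of the exon bases of Gm27177 on the opposite strand. It had the same values as Entpd4 in both Ter119pos WT libraries, and 2.09 and 1.25 CPM in KO. The split of reads between Entpd4 and Gm21685 may therefore be uncertain as well. Slc25a37, to the left of both models, was at 8903 and 7582 CPM in WT and at 3444 and 2809 CPM in KO in Ter119pos (-1.40, SE 0.182, adjusted p = 3.49e-05), while in Ter119neg it was at 35.1 and 35.1 CPM in WT and 52.0 and 50.3 CPM in KO (0.54, SE 0.182, adjusted p = 0.0564). The map of these genes by library shows levels near 0 in fetal KO for Gm28049, Gm27177, Gm21451 and Gm38378 and a partial drop for Slc25a37. Gm37094, also within Gm28049, was not near 0, at 594 and 420 CPM in Ter119pos WT and 63.0 and 36.1 CPM in KO. Gm20236, which lies within Slc25a37 and is on the map, had identical values in every library. Both are read as 1 signal, which cannot be placed within Gm28049 or within Slc25a37. Gm37847, which overlaps the end of Gm28049, was at 44.7 and 53.9 CPM in Ter119pos WT and 19.9 and 13.0 CPM in KO. Gm31748, at the end of Slc25a37, had nearly the same values, except for 0 in Ter119pos WT library B. The place of that signal is uncertain too.

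**Figure D2:**
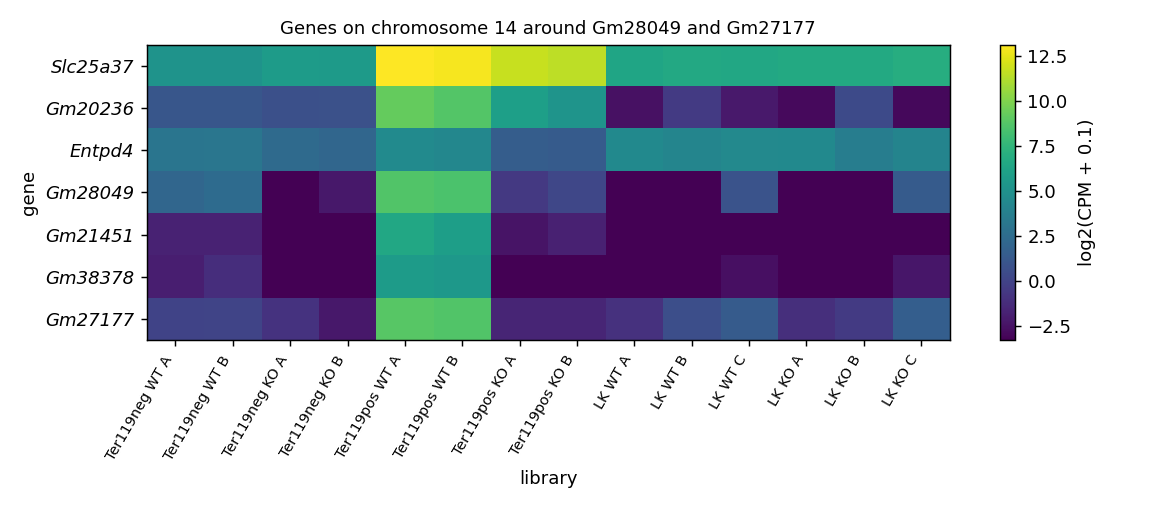
Levels of Gm28049, Gm27177 and 5 genes around or within them in all 14 libraries, as log2(CPM + 0.1) on the colour scale. The Ter119pos WT columns are the brightest for each of these genes except Entpd4, which is as high in LK, and Gm38378 is at 0 in the 4 fetal KO columns.

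The drop in KO can be set beside the gain in WT for each gene. In WT all 8 stood higher in Ter119pos than in Ter119neg, from 4.48-fold for Aim2 to 472-fold for Gm27177 taken alone. Of all genes 76.3% were called there, 35.9% higher and 40.4% lower. The sum of Gm28049 and Gm27177, the safer value, gained 7.15 on the log2 scale, below the 8.61 of Cadm3. The log2 difference of that sum between KO and WT in Ter119pos was -9.64, larger in size than its gain. Both comparisons share the Ter119pos WT libraries, so no relation between them was tested. For Aim2, Angpt2, Gm28049 and Gm27177 the drop was larger than the gain, and the KO Ter119pos mean lay under the Ter119neg WT mean, by 3.47-, 1.88-, 5.99- and 4.07-fold. Slc15a2 came close to its starting level, with 2.82 CPM in KO Ter119pos against 1.68 CPM in Ter119neg WT, on 2 unlike KO libraries. These placements rest on TMM factors of 1.72 to 1.97 in Ter119neg WT and 0.408 to 0.482 in Ter119pos KO. Slc15a2 held 78 and 2 counts in KO Ter119pos and 53 and 98 in Ter119neg WT, so without these factors its order is reversed. Ube2d2b, Cadm3 and Apol8 kept part of their step and stood 8.07-, 30.3- and 76.7-fold above the Ter119neg WT mean in KO Ter119pos. In KO 62.6% of all genes were called between the fractions, 30.3% higher and 32.3% lower in Ter119pos. Over all genes tested the median log2 step was -0.19 in WT and -0.12 in KO.

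**Figure D3:**
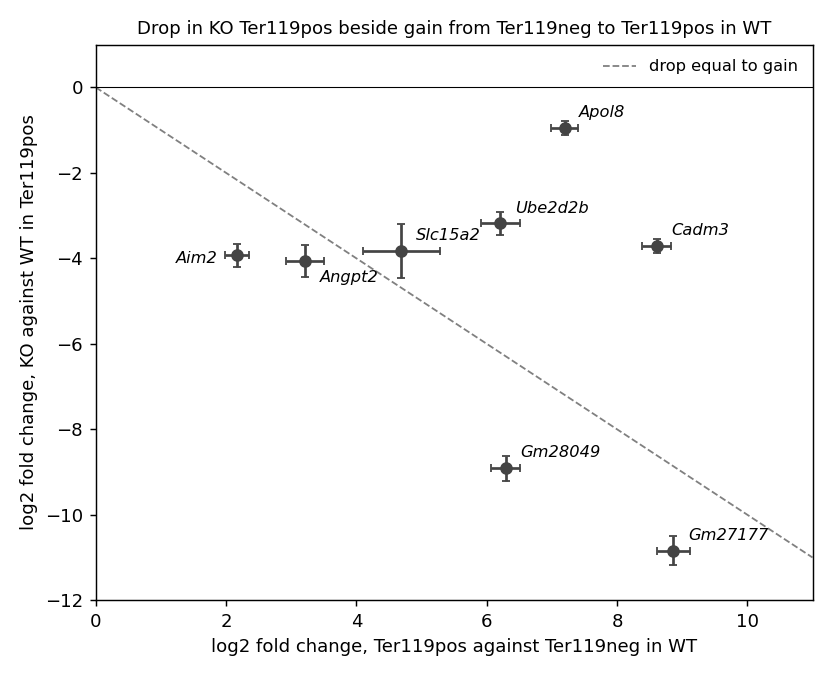
Log2 fold change of KO against WT in Ter119pos (vertical) beside that of Ter119pos against Ter119neg in WT (horizontal) for the 8 genes, with bars of 1 SE of the fitted value and a dashed line where drop equals gain. Aim2, Angpt2, Gm28049 and Gm27177 lie below the line, Slc15a2 near it, and Ube2d2b, Cadm3 and Apol8 above it.

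In Ter119neg, where the genes were not chosen, 5 of the 8 were called between KO and WT, 4 lower and 1 higher. Of all genes tested 19.1% were called, 9.55% lower and 9.57% higher. All 8 passed the filter on low counts, also in a fit of the 2 Ter119neg groups alone, with Cadm3 and Ube2d2b at low levels there. The count is not read as an excess over that background, since Gm28049 and Gm27177 share their sequence. The KO libraries of both fractions also came from the same mice. Gm28049 was lower by a log2 value of -6.35 (SE 0.424, adjusted p = 5.51e-06) and Gm27177 by -1.75 (SE 0.384, adjusted p = 0.00772), and their sum by -4.11 (adjusted p = 6.65e-06). The sizes of the first 2 rest on single KO libraries. When KO library B was left out Gm28049 gave -10.0 and Gm27177 -1.11, and when KO library A was left out they gave -5.46 and -3.09, all 4 still called. Angpt2 was lower by -1.11 (SE 0.355, adjusted p = 0.047) and Aim2 by -0.64 (SE 0.201, adjusted p = 0.0441). The calls of Angpt2 and Aim2 were not stable. Angpt2 lost its call without KO library B, WT library A or WT library B (adjusted p of 0.254, 0.0607 and 0.157). Aim2 lost it without KO library A or WT library B (0.250 and 0.210), in a fit of the 2 groups alone (0.0689) and with the library letter as a block (0.0501). The macrophage markers given beside the PYHIN genes were lower in the same KO libraries, and their part in these 2 results was not tested.

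Apol8 was the member called higher in Ter119neg KO, by 2.66 (SE 0.199, adjusted p = 1.03e-05), with both KO libraries above both WT libraries and values of 2.32 to 2.87 when single libraries were left out. Late erythroid genes were higher there too, 10 of 29 tested against 1 lower, with a median of 0.28. Alas2, the first enzyme of heme synthesis in red cells, was higher by 1.59 (SE 0.201, adjusted p = 0.000245). The count of late erythroid genes called higher was 4 to 8 when single libraries were left out. Summed erythroid markers were at 424 to 494 CPM in Ter119neg WT and 710 to 1228 CPM in KO, with 5 of 8 called higher, and their part in the Apol8 result was not tested. Slc15a2 showed -1.53 (SE 0.829, adjusted p = 0.227, 95% interval -3.33 to 0.28), Cadm3 0.13 (SE 0.432, adjusted p = 0.871, interval -0.81 to 1.07) and Ube2d2b 0.29 (SE 0.457, adjusted p = 0.713, interval -0.71 to 1.28). At such low levels in Ter119neg, changes inside these intervals were not detectable for Cadm3 and Ube2d2b at this depth.

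**Figure D4:**
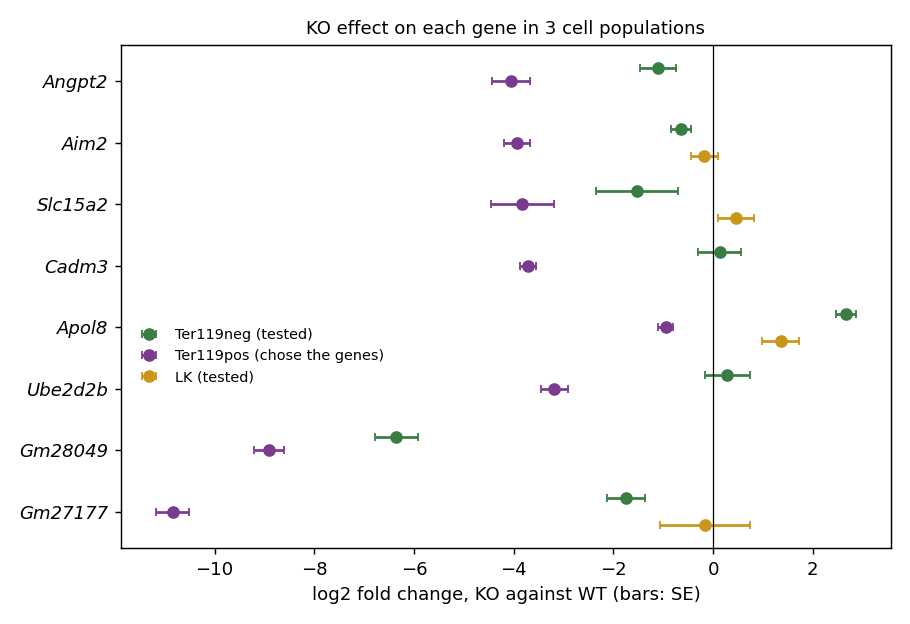
Fitted log2 fold change of KO against WT for each gene in Ter119neg (green), Ter119pos (purple, the contrast that chose the genes) and LK (yellow, 4 genes that passed the filter), with bars of 1 SE. Apol8 is to the right of 0 in Ter119neg and LK and to the left in Ter119pos, while the other tested values in LK lie between -0.18 and 0.46.

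In LK progenitors 4 of the 8 passed the filter, Aim2, Slc15a2, Apol8 and Gm27177, and edgeR called 0 of them, against 1.82% of 13771 genes in either direction and 1.15% higher. At an unadjusted p under 0.05 there was 1. With the library letter as a block, or with DESeq2, 1 of the 4 was called. That gene was Apol8, at 1.73, 2.68 and 2.90 CPM in KO and 1.11, 0.730 and 0.962 CPM in WT. Every KO library was above every WT library, with a log2 difference of 1.36 (SE 0.369, unadjusted p = 0.00719, adjusted p = 0.122), 1.30 (adjusted p = 0.033) with the letter block and 1.35 (adjusted p = 0.0405) with DESeq2. Aim2 was well expressed in both genotypes, at 19.6, 16.7 and 25.8 CPM in KO and 24.1, 18.2 and 27.8 CPM in WT, and its difference of -0.18 (adjusted p = 0.768) had an interval of -0.80 to 0.45. Slc15a2 was at 6.01, 2.74 and 4.26 CPM in KO and 3.57, 2.35 and 3.53 CPM in WT, with 0.46 (adjusted p = 0.568, interval -0.41 to 1.33). Whether these differences depart from those in Ter119pos was not tested, and the 2 settings differ in cell source, Cre and RNA kit.

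The other members were at or near the floor in LK. Angpt2 had 18 counts over the 3 KO libraries and 15 over the 3 WT libraries, Cadm3 had 25.0 and 23.4, and Ube2d2b 7 and 5. Gm28049 was at 0 in libraries A and B of both genotypes and at 2.59 CPM in KO library C and 1.72 in WT library C. The sum of Gm28049 and Gm27177 was likewise 5.49 and 4.27 CPM in the C libraries and 0.362 to 1.43 CPM in the other 4. The difference between genotypes in that sum was 0.09 (adjusted p = 0.974), smaller than the difference between letters. Among related genes in LK, Slc4a1, the band 3 anion exchanger, was the only late erythroid gene of 29 called, lower by a log2 value of -5.32 (SE 0.591, adjusted p = 0.01).

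Late erythroid genes outside the 8 were also lower in Ter119pos KO. Of 29 tested genes 22 were called lower and 7 were not called, with a median of -0.97 beside -0.04 for all genes. Sptb, of the red cell membrane skeleton, was lower by a log2 value of -2.01 (SE 0.182, adjusted p = 1.77e-06), Ermap, an erythroid membrane protein, by -1.98, Xpo7, an exportin of late erythroblasts, by -1.97 and Hemgn by -1.49. Of 12 erythroid transcription factor genes 6 were lower and 1 higher. Bcl11a, a repressor in globin switching, was lower by a log2 value of -0.998 (SE 0.107, adjusted p = 6.96e-06), Ikzf1 by -0.83 and Lmo2 by -0.72. Klf1, which binds CACCC motifs, was higher, at 472 and 456 CPM in KO against 311 and 275 CPM in WT (0.66, SE 0.130, adjusted p = 0.000888). As a share of unscaled counts Klf1 ran the other way, with its KO libraries below its WT libraries.

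The members' profiles over the 8 fetal libraries ranged from weakly to closely alike. Pearson r between log2 CPM of pairs of members ran from 0.238 (Aim2 and Apol8) to 0.982 (Cadm3 and Ube2d2b) over 28 pairs, and the libraries differ by fraction and genotype, which all pairs share. Among 8345 genes averaging 5 CPM or more, those nearest the mean standardised profile of the 8 were Bsn (r = 0.999), Prr14l, Gabpb2, Celf1, Pdik1l and Brip1os (r = 0.996). Bsn, a synaptic scaffold gene, had group means of 12.8 CPM in Ter119neg WT, 10.3 in Ter119neg KO, 56.9 in Ter119pos WT and 14.4 in Ter119pos KO. Celf1, an RNA-binding regulator of splicing and decay, stood at 84.3, 71.8, 234 and 93.9 CPM in the same order. These profiles, like those of the members, were highest in Ter119pos WT. Pearson r compares the shape of a profile and not its size, and Bsn and Celf1 were expressed in every fetal group. The nearest single gene was Tm9sf1 for Angpt2 (r = 0.996), Pdzd8 for Aim2 (0.996), Zfp81 for Slc15a2 (0.982), Gpsm2 for Cadm3 (0.999), 9130221H12Rik for Ube2d2b (0.999), Papola for Gm28049 (0.993) and Hjurp for Gm27177 (0.997). Apol8 was nearest to 1300017J02Rik (0.999), which had group means of 3.39, 13.7, 186 and 104 CPM and so the same order of groups as Apol8, with KO above WT in Ter119neg and below it in Ter119pos.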

How the data were processed

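The authors deposited expected counts per gene, which per the submitters' processing notes came from STAR 2.5.3 and RSEM with build GRCm38 (mm10). RSEM's version, annotation and strand setting were not given in the sources used here. Kits were stranded and for total RNA, per the labels' protocols. The expected counts were rounded and tested with edgeR 4.0.16 in R 4.3.3 (TMM, filterByExpr, quasi-likelihood F test). The 8 fetal libraries were fitted together (15566 genes) and the 6 LK libraries apart (13771 genes). SE is the absolute log2 fold change divided by the root of F, and it includes the spread between libraries. Intervals are 95%. Floors are 3 counts per library and, like group sums, cover counting error only. TMM factors were 0.408 to 0.482 in Ter119pos KO and 0.792 to 0.855 in Ter119pos WT. In Ter119neg they were 1.36 to 1.63 in KO and 1.72 to 1.97 in WT, and folds are on that scale. Smaller rises in Ter119pos KO, such as those of Klf1, Pycard and Apol11b, depend on these factors. Positions come from GENCODE M21, in which Gm28049 is named Gm16867. Promoter windows come from RefSeq.

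The members, gene lists and alternatives were chosen with earlier results of these data known. Named genes were Prmt5, the members, up to 4 genes per list with the smallest p in Ter119pos, genes called in Ter119neg or LK where 5 or fewer were counted, overlapping and neighbouring genes, and those with the most similar profile. Sptb, Ube2t, Vegfa, Il18, Alas2, Kit and Ube2d2a were added after their values were seen. Some genes that the rule names are not reported here. Other lists covered progenitor, megakaryocyte, granulocyte, lymphoid, mast cell and hepatoblast markers and Ly6a. In Ter119neg KO against WT these gave 0, 0, 0, 0, 0 and 0 genes called higher and 4, 1, 3, 3, 3 and 1 lower, and Ly6a was not called. Nothing in the labels says whether LK libraries came from separate mice, and p-values there may cover technical spread only. Alternatives were RLE scaling, no filter, DESeq2 1.42.0, the 2 groups alone, globin genes left out, letter or mouse blocks and each library left out. LK libraries of the same letter deviated together (r = 0.604, 0.719 and 0.730), so blocked LK values stand beside results they change. Fetal letters did not (r of 0.00472 and -0.0288). Per the labels mice 1, 2 and 4 each gave both fractions (r = 0.155 for mouse 1 and -0.0678 for mouse 4), so the mouse was a block in the alternative fits between fractions. The scripts were tested on simulated counts.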

Additional observations from a re-analysis of the deposited data

Results flagged for a closer look

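Apol8 stood higher in KO in Ter119neg (log2 difference 2.66) and in LK (1.36, edgeR adjusted p = 0.122, not called), with every KO library above every WT library, and lower in Ter119pos. That contrast chose the genes, so the difference between populations was not tested.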

How the results depend on the processing

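The direction of the KO effect in Ter119pos was the same for all 8 genes under every alternative run. The genes were chosen for that direction in these libraries, so this is a description and no support for it. In LK, where 250 genes were called, DESeq2 called 1074, the replicate block by letter 3129, and the fit without both letter C libraries 14, an alternative chosen after seeing the data. Of the members in LK, 0 were called, and 1 (Apol8) with DESeq2 and 1 with the replicate block. In Ter119neg DESeq2 called 3 PYHIN genes in place of 5, and with Gm28049 and Gm27177 summed, also added after seeing the data, 3 single members were called in place of 5, since the pair left the count. With single libraries left out, the calls were 1450 to 1788 genes in Ter119neg (2976 with all), 33 to 268 in LK, 3 to 4 members, 4 to 8 late erythroid genes higher and 2 to 4 PYHIN genes lower in Ter119neg, and 0 members in LK. Prmt5 lost its LK call without KO library A, B or C (adjusted p of 0.0715, 0.0531 and 0.0611) and without both C libraries (0.0965). The values that changed sign were not called with all libraries in Ter119neg or LK and were not tested between the KO fractions. With single libraries left out they ran from -0.13 (without KO A) to 0.56 for Ube2d2b and from -0.61 (without KO B) to 0.56 for Cadm3 in Ter119neg, and from -1.62 to 0.57 for Gm27177 in LK (0.28, 0.15 and 0.57 without KO A, KO B and WT C). Between the KO fractions they ran from -0.81 to 1.17 (without Ter119neg KO A) for Gm27177, and, lowest without Ter119pos KO A, from -0.99 to 0.84 for Angpt2 and from -1.71 to 4.07 for Slc15a2. The cause was not tested. Slc15a2 gained a call in Ter119neg with no low count filter (adjusted p = 2.39e-08). Its SE was 0.251 there against 0.829 with the filter, on the same libraries. DESeq2 did not call it (adjusted p = 0.546). With the mouse as a replicate block, the WT gain was 2.81 for Angpt2, 1.87 for Aim2, 8.35 for Cadm3, 5.85 for Ube2d2b and 6.03 for Gm28049. Depth limits Cadm3, Ube2d2b, Gm28049 and Angpt2 outside Ter119pos.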
